A study of Mus musculus with 29 samples.

Results

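The 43 genes described here encode the machinery that copies DNA. They were chosen by symbol and by known role from 48709 Ensembl gene identifiers in the RNA count tables, and all 43 passed the filter on low counts that left 20078 genes for testing. The study sorted nuclei of embryonic mouse cortex at E16.5 by FACS into Tbr2-positive and Tbr2-negative fractions, after treatment with trichostatin A (TSA), an inhibitor of histone deacetylases, or with vehicle. Tbr2, the protein of Eomes, marks basal progenitors, the dividing cells above the ventricular surface that give rise to cortical neurons. The RNA-seq groups were Tbr2-positive nuclei with TSA (2 libraries), Tbr2-positive nuclei with vehicle (3), Tbr2-negative nuclei with TSA (2) and Tbr2-negative nuclei with vehicle (3). The H3K9ac ChIP-seq groups, for acetylation of histone H3 at lysine 9, held 4, 3, 4 and 4 libraries in the same order. No strain, dose or length of treatment is given in the labels, and nothing says whether the libraries came from separate embryos, so p-values measure only the spread between these samples, which may be technical. The series text speaks of sorted nuclei, while the protocol field of the RNA samples speaks of whole tissue. The Tbr2-negative fraction is a mixture of all other nuclei.

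Replication starts at origins, where the origin recognition complex with Cdc6 and Cdt1 loads the Mcm2 to Mcm7 helicase in G1. In S phase Cdc45 and the GINS complex join the helicase, primase and the polymerases copy both strands on the Pcna clamp, and Fen1 and Lig1 join the fragments of the lagging strand. Cyclin E with Cdk2 drives entry into S phase, and many of these genes are textbook targets of E2F factors, which act in late G1. Replication genes are therefore used as a sign of cycling cells, and in developing cortex they are known from the progenitor layers.

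Tbr2-positive nuclei carried more RNA of replication genes than Tbr2-negative nuclei, with vehicle and with TSA. Summed over the 43 genes, with CPM meaning counts per 1000000 counts of a library after TMM scaling, vehicle-treated Tbr2-positive nuclei held 2824, 3581 and 2838 CPM, against 1729, 1730.3 and 1691 CPM in vehicle-treated Tbr2-negative nuclei. With TSA the sums were 3477 and 2855 CPM in Tbr2-positive nuclei and 2028 and 1997 CPM in Tbr2-negative nuclei. Every Tbr2-positive library stood above every Tbr2-negative one. In the vehicle comparison 30 of 43 genes were higher in Tbr2-positive nuclei and 0 were lower, where 21.4% of all genes tested passed, 9.96% as higher and 11.5% as lower (edgeR quasi-likelihood test over all genes, Benjamini-Hochberg adjusted p under 0.05). Their median log2 fold change was 0.94, against -0.05 over all genes tested, and 40 of 43 values were positive, against 47.5% of all genes. With TSA, 19 of 43 were higher in Tbr2-positive nuclei and 0 lower, against 4.19% and 5.13% of all genes (9.32% in either direction), with a median of 0.90 against -0.02. At an unadjusted p under 0.05 there were 34 of 43 with vehicle (33.1% of all genes) and 29 of 43 with TSA (23.0%). All 19 were among the 30, which is 63.3% of the 30. In libraries rather than calls, 33 of 43 genes were higher in every Tbr2-positive vehicle library than in any Tbr2-negative one (18.4% of all genes), and 34 of 43 with TSA (23.6%). In bulk samples such as these, fewer cells of a type and less RNA per cell cannot be told apart.

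RNA libraries held 18567111 to 26282652 counts. Eomes followed the sort, at 409.9, 371 and 548 CPM in Tbr2-positive and 22.0, 13.9 and 18.2 CPM in Tbr2-negative vehicle nuclei, and at 391 and 462 CPM in Tbr2-positive and 14.2 and 8.24 CPM in Tbr2-negative TSA nuclei. The fractions also differed in other cell markers. In the vehicle comparison 7 of 8 mitosis markers were higher in Tbr2-positive nuclei, with summed levels of 535 to 760.4 CPM, against 174 to 236 CPM in Tbr2-negative nuclei. All 8 interneuron markers were lower, at 103 to 209 CPM in Tbr2-positive and 652 to 756 CPM in Tbr2-negative nuclei. Of 8 neuron markers 5 were lower and 1 higher (4590.2 to 5549.7 CPM against 7862 to 9851 CPM), and of 8 radial glia markers edgeR called 2 higher and 0 lower and DESeq2 2 higher and 1 lower (962 to 1252 CPM against 796 to 851 CPM). All 8 basal progenitor markers were higher (1445 to 2016 CPM against 139 to 244 CPM). Oligodendrocyte precursor markers were lower in 4 of 5 (6.82 to 12.9 CPM against 38.8 to 55.7 CPM), microglia markers in 2 of 6 in edgeR and 4 in DESeq2 (9.94 to 20.9 CPM against 27.8 to 48.5 CPM) and vascular and meningeal markers in 1 of 6 (21.1 to 52.8 CPM against 48.8 to 62.4 CPM). No gene of these lists was at 0 in every library, and the part of these differences in the results on replication genes was not tested. Within the Tbr2-positive vehicle group library 2 was highest for 34 of 43 replication genes.

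**Figure D1:**
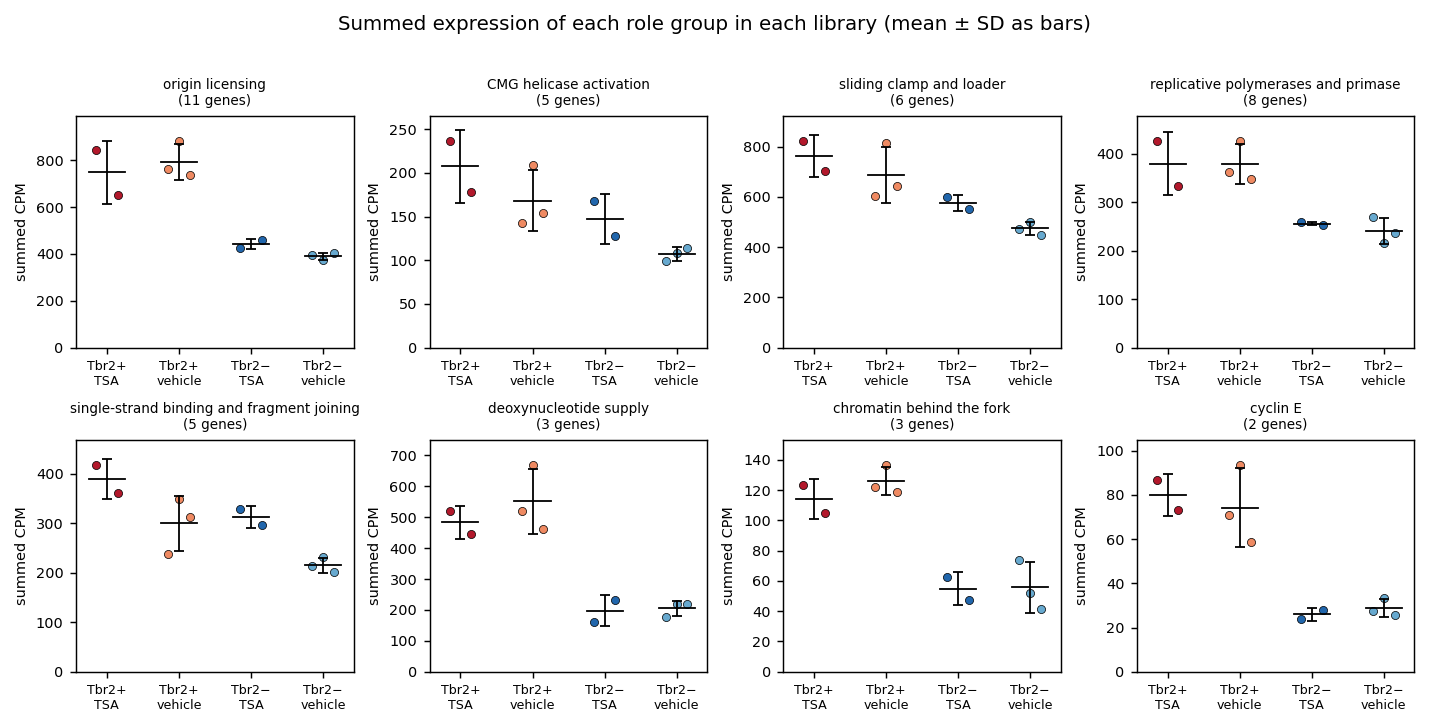
Summed CPM (y axis) of each role group of replication genes in every RNA library, with Tbr2-positive TSA, Tbr2-positive vehicle, Tbr2-negative TSA and Tbr2-negative vehicle nuclei from left to right; points are libraries and bars the mean ± SD. Every Tbr2-positive library lies above every Tbr2-negative library of the same treatment in all 8 panels.

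The promoters of 35 of the 43 genes were in a RefSeq promoter table (GRCm38.p6, the assembly called mm10 by the submitters). The 250 bases before the start were searched on both strands for 4 forms of the E2F motif, TTTGGCGC, TTTCGCGC, TTTCCCGC and TTTGCCGC, which can overlap each other on opposite strands. At least 1 form stood in 8 of 35 promoters (22.9%), against 1.91% of 27025 promoters and 3.66% of the 11401 promoters with an H3K9ac peak within 1 kb of the start in every library. The 8 were those of Orc1, Cdc6, Mcm5, Mcm6, Mcm7, Gins3, Rfc3 and Pola1. Of these, 7 were higher in Tbr2-positive vehicle nuclei, against 19 of the 27 genes whose promoter held none of the forms. The CCAAT box stood in 65.7% of the 35 promoters, against 34.5% of all promoters and 36.1% of those with a peak, and TTTGAA, a short motif of cell cycle promoters, in 11.4%, against 16.3% and 9.59%. The median GC content was 59.6%, against 52.0% of all promoters and 61.2% of those with a peak. A match describes the letters only, not binding. The strand that holds the gene is shown 5′ to 3′ for 1 gene in each of 4 role groups, so that the motif can be seen in its setting, with the E2F forms in capitals.
Mcm6 (chr1:128359706-128359955, minus strand): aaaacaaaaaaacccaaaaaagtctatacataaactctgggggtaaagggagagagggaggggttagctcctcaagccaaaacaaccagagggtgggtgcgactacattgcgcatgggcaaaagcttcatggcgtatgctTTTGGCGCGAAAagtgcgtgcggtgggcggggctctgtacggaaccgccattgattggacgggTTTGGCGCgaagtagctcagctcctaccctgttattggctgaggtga
Gins3 (chr8:95633309-95633558, plus strand): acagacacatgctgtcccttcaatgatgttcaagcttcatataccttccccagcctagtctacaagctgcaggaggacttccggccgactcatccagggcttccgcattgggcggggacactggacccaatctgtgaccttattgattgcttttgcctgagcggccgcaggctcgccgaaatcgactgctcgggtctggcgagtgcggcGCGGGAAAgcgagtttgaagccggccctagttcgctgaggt
Rfc3 (chr5:151651209-151651458, minus strand): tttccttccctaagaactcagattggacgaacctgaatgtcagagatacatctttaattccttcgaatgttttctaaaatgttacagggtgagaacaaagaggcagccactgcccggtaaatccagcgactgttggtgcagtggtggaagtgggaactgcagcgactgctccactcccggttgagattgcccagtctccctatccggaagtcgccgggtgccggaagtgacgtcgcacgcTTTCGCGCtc
Pola1 (chrX:93632156-93632405, minus strand): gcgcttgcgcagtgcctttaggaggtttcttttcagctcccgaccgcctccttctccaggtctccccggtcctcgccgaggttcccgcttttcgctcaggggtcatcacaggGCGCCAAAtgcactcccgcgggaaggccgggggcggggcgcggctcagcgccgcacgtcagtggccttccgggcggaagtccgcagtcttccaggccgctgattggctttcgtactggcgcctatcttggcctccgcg

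Mcm6 held 3 matches, 2 of which overlap on opposite strands in the first run of capitals, with the nearest ending 40 bases before the start. Single matches ended 34 bases before the start in Gins3, 3 bases in Rfc3 and 131 bases in Pola1. The 4 were chosen among genes with an E2F form and an H3K9ac peak within 1 kb of the start in 15 of 15 libraries. In each role group the gene with the smallest p in the vehicle comparison was taken. The match and the peak are thus no result for these 4. Within 1 kb of the Mcm6 start, peaks covered 710.2 ± 122.9 bases in Tbr2-positive TSA libraries (SD, n = 4), 839.3 ± 176.2 bases in Tbr2-positive vehicle libraries (n = 3), 637.0 ± 128.6 bases in Tbr2-negative TSA libraries (n = 4) and 793.2 ± 42.6 bases in Tbr2-negative vehicle libraries (n = 4).

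Origin licensing was the largest group, and 10 of its 11 genes were higher in Tbr2-positive vehicle nuclei. Mcm2 (ENSMUSG00000002870), a subunit of the helicase ring, stood at 113, 156 and 113 CPM in Tbr2-positive nuclei, against 45.0, 33.6 and 43.4 CPM in Tbr2-negative nuclei. The lowest positive library was thus well above the highest negative one, and the log2 fold change was 1.64 ± 0.23 (adjusted p = 0.000283), where errors of fold changes are SE throughout. Mcm6 (ENSMUSG00000026355), with 3 E2F matches in the promoter shown above, stood at 194, 146 and 129 CPM in Tbr2-positive nuclei, against 57.1, 45.6 and 49.0 CPM in Tbr2-negative nuclei, and its change was 1.63 ± 0.23 (adjusted p = 0.000331). Cdc6 (ENSMUSG00000017499), which helps load the ring, showed the largest difference of the 43, with 16.4, 25.3 and 19.9 CPM in Tbr2-positive nuclei, against 5.54, 2.02 and 2.87 CPM in Tbr2-negative nuclei. The groups were far apart at 2.55 ± 0.37 (adjusted p = 0.000353). Mcm10 helps the loaded helicase become active but was counted here with licensing. Mcm10 stood at 10.95, 14.2 and 14.4 CPM in Tbr2-positive nuclei, against 2.92, 3.35 and 1.76 CPM in Tbr2-negative nuclei, a change of 2.30 ± 0.38 (adjusted p = 0.000942). The other ring subunits followed. Mcm3 stood at 39.3, 69.3 and 57.5 CPM in Tbr2-positive nuclei, against 19.1, 15.4 and 24.6 CPM in Tbr2-negative nuclei (1.49 ± 0.28, adjusted p = 0.00202). Mcm4 stood at 51.4, 81.2 and 60.7 CPM in Tbr2-positive nuclei, against 25.4, 26.1 and 27.6 CPM in Tbr2-negative nuclei (1.29 ± 0.20, adjusted p = 0.000573). None of these groups overlapped. Mcm5 stood at 54.6, 75.4 and 74.7 CPM in Tbr2-positive nuclei, against 30.9, 33.5 and 35.7 CPM in Tbr2-negative nuclei (1.03 ± 0.21, adjusted p = 0.00311), and Mcm7 at 154, 174 and 139.7 CPM in Tbr2-positive nuclei, against 89.2, 69.9 and 85.7 CPM in Tbr2-negative nuclei (0.94 ± 0.16, adjusted p = 0.00103).

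Among the remaining licensing genes, Cdt1, the partner of Cdc6 in loading, stood at 20.6, 23.7 and 20.3 CPM in Tbr2-positive nuclei, against 11.5, 7.03 and 12.3 CPM in Tbr2-negative nuclei, with no overlap and a change of 1.06 ± 0.26 (adjusted p = 0.0116). Orc1, the largest subunit of the origin recognition complex, stood at 5.52, 5.89 and 10.52 CPM in Tbr2-positive nuclei, against 2.62, 3.09 and 3.94 CPM in Tbr2-negative nuclei. Its call at 1.18 ± 0.39 (adjusted p = 0.0483) was close to the threshold and ended with no filter on low counts (1.22, adjusted p = 0.0688) and without Tbr2-positive vehicle library 2 (1.34, adjusted p = 0.0599), Tbr2-positive vehicle library 3 (0.84, adjusted p = 0.218), Tbr2-positive TSA library 1 (1.20, adjusted p = 0.0536), Tbr2-positive TSA library 2 (1.19, adjusted p = 0.0557), Tbr2-negative vehicle library 1 (1.07, adjusted p = 0.133), Tbr2-negative vehicle library 2 (1.16, adjusted p = 0.111) and Tbr2-negative vehicle library 3 (1.37, adjusted p = 0.0658). Orc6, the smallest subunit, was the exception, with 101, 111 and 97.8 CPM in Tbr2-positive nuclei, against 105, 133 and 115 CPM in Tbr2-negative nuclei. Its groups overlapped and the value was -0.19 ± 0.14 (adjusted p = 0.382).

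Of the 5 genes grouped as turning the loaded ring into the active helicase, without Mcm10, 3 were higher in Tbr2-positive vehicle nuclei. Cdc45 (ENSMUSG00000000028) stood at 25.7, 40.7 and 31.1 CPM in Tbr2-positive nuclei, against 11.7, 8.41 and 8.33 CPM in Tbr2-negative nuclei, a change of 1.77 ± 0.38 (adjusted p = 0.00475). Gins3 (ENSMUSG00000031669), a subunit of the GINS complex with an E2F match in its promoter above, stood at 19.5, 20.2 and 12.3 CPM in Tbr2-positive nuclei, against 5.62, 8.09 and 8.06 CPM in Tbr2-negative nuclei, at 1.26 ± 0.27 (adjusted p = 0.00524). For both genes every positive library was above every negative one. Gins1 also passed, with 39.9, 57.6 and 42.0 CPM in Tbr2-positive nuclei, against 30.0, 32.2 and 27.5 CPM in Tbr2-negative nuclei and 0.64 ± 0.19 (adjusted p = 0.0299). The call of Gins1 ended without Tbr2-positive vehicle library 2 (0.48, adjusted p = 0.122) and without Tbr2-negative vehicle library 1 (0.65, adjusted p = 0.0647) or 3 (0.60, adjusted p = 0.0907). The other GINS subunits did not pass and their groups overlapped. Gins2 stood at 10.9, 21.3 and 13.9 CPM in Tbr2-positive nuclei, against 9.13, 10.1 and 13.4 CPM in Tbr2-negative nuclei (0.50 ± 0.28, adjusted p = 0.246), and Gins4 at 46.6, 68.9 and 54.3 CPM in Tbr2-positive nuclei, against 42.0, 49.0 and 57.0 CPM in Tbr2-negative nuclei (0.20 ± 0.19, adjusted p = 0.517). Subunits of 1 complex thus ranged from 0.20 to 1.26 in log2 fold change, and the differences between them were not tested.

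Pcna, the sliding clamp, and 2 of the 5 subunits of its loader were higher in Tbr2-positive vehicle nuclei. Pcna (ENSMUSG00000027342) stood at 124, 207 and 153 CPM in Tbr2-positive nuclei, against 90.6, 109 and 94.4 CPM in Tbr2-negative nuclei. The groups did not overlap, but library 2 of the positive group was the highest, and the change of 0.72 ± 0.18 (adjusted p = 0.0134) became 0.52 (adjusted p = 0.0604) without it. Rfc4 (ENSMUSG00000022881) stood at 87.3, 109.5 and 101 CPM in Tbr2-positive nuclei, against 51.2, 62.7 and 59.7 CPM in Tbr2-negative nuclei, at 0.78 ± 0.14 (adjusted p = 0.00176). Rfc3 (ENSMUSG00000033970), with an E2F match next to its start, stood at 181, 230.4 and 189.9 CPM in Tbr2-positive nuclei, against 125, 129 and 124 CPM in Tbr2-negative nuclei, at 0.67 ± 0.14 (adjusted p = 0.00377). Both small loader subunits had groups that did not overlap. The large subunit Rfc1 missed the threshold in edgeR, with 71.0, 66.4 and 65.6 CPM in Tbr2-positive nuclei, against 47.0, 60.9 and 36.4 CPM in Tbr2-negative nuclei and 0.49 ± 0.18 (adjusted p = 0.0704), although no libraries overlapped. It was called with the replicate number as a block (0.52, adjusted p = 0.0399), by DESeq2 (0.51, adjusted p = 0.0382) and without Tbr2-negative vehicle library 2 (0.70, adjusted p = 0.016). Rfc5 missed the threshold in edgeR, with 41.3, 48.4 and 23.3 CPM in Tbr2-positive nuclei, against 24.3, 22.6 and 18.9 CPM in Tbr2-negative nuclei and 0.78 ± 0.28 (adjusted p = 0.0616), and library 3 of the positive group (23.3 CPM) fell within the range of the negative ones. Rfc5 was called by DESeq2 (0.80, adjusted p = 0.0256), with no filter (0.82, adjusted p = 0.0236) and in a fit of the 2 groups (0.81, adjusted p = 0.043), and without Tbr2-positive vehicle library 3 (1.04, adjusted p = 0.0123), Tbr2-positive TSA library 1 (0.80, adjusted p = 0.0409) and Tbr2-positive TSA library 2 (0.78, adjusted p = 0.0412). Rfc2 showed no difference beyond the spread, with 100.5, 154 and 110.0 CPM in Tbr2-positive nuclei, against 136, 115 and 117 CPM in Tbr2-negative nuclei and -0.01 ± 0.18 (adjusted p = 0.978).

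Of the 8 subunits of polymerases and primase, 4 were higher in Tbr2-positive vehicle nuclei. Prim1 (ENSMUSG00000025395), the catalytic subunit of primase, stood at 119, 155 and 107 CPM in Tbr2-positive nuclei, against 63.9, 67.5 and 67.7 CPM in Tbr2-negative nuclei, with no overlap and a change of 0.94 ± 0.16 (adjusted p = 0.00115). Pole2 (ENSMUSG00000020974), an accessory subunit of the leading-strand polymerase epsilon, stood at 27.0, 20.4 and 19.1 CPM in Tbr2-positive nuclei, against 13.4, 9.58 and 9.17 CPM in Tbr2-negative nuclei, at 1.05 ± 0.25 (adjusted p = 0.00967). Pole, its catalytic subunit, stood at 14.4, 15.6 and 15.3 CPM in Tbr2-positive nuclei, against 10.6, 4.95 and 6.48 CPM in Tbr2-negative nuclei (1.03 ± 0.33, adjusted p = 0.0426). The groups of both epsilon subunits were separate, but the call of Pole ended without Tbr2-positive vehicle library 1 (1.09, adjusted p = 0.0713), Tbr2-positive vehicle library 2 (1.03, adjusted p = 0.0878), Tbr2-positive vehicle library 3 (1.04, adjusted p = 0.086), Tbr2-positive TSA library 2 (1.04, adjusted p = 0.0501), Tbr2-negative vehicle library 2 (0.82, adjusted p = 0.14) and Tbr2-negative vehicle library 3 (0.97, adjusted p = 0.119). Pola2, of polymerase alpha, passed with 37.7, 40.7 and 34.5 CPM in Tbr2-positive nuclei, against 27.2, 18.9 and 20.8 CPM in Tbr2-negative nuclei (0.75 ± 0.20, adjusted p = 0.0159). Its call ended without Tbr2-negative vehicle library 2 (0.65, adjusted p = 0.0613). The other 4 missed the threshold in edgeR. Pola1, the catalytic subunit of alpha whose promoter is shown above, stood at 71.1, 61.4 and 51.0 CPM in Tbr2-positive nuclei, against 46.2, 42.8 and 41.4 CPM in Tbr2-negative nuclei, with separate groups and 0.49 ± 0.20 (adjusted p = 0.0993). It was called with the replicate number as a block (0.48, adjusted p = 0.0323) and in a fit of the 2 groups (0.52, adjusted p = 0.0456). Prim2, the large primase subunit, stood at 31.1, 50.6 and 47.3 CPM in Tbr2-positive nuclei, against 37.9, 28.0 and 31.1 CPM in Tbr2-negative nuclei (0.41 ± 0.21, adjusted p = 0.185), and its groups overlapped. It was called without Tbr2-positive vehicle library 1 (0.62, adjusted p = 0.0401). Both subunits of the lagging-strand polymerase delta missed the threshold. Pold1 stood at 41.8, 55.1 and 42.8 CPM in Tbr2-positive nuclei, against 40.1, 19.7 and 30.2 CPM in Tbr2-negative nuclei (0.63 ± 0.28, adjusted p = 0.129), and Pold2 at 20.8, 28.2 and 32.1 CPM in Tbr2-positive nuclei, against 30.9, 25.1 and 30.6 CPM in Tbr2-negative nuclei (-0.09 ± 0.27, adjusted p = 0.858). Pold1 was called without Tbr2-negative vehicle library 1 (0.91, adjusted p = 0.0492).

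Of the 5 genes for single-strand binding and fragment joining, 3 were higher in Tbr2-positive vehicle nuclei. Lig1 (ENSMUSG00000056394), the ligase that seals the fragments, stood at 46.9, 75.1 and 67.8 CPM in Tbr2-positive nuclei, against 33.0, 31.9 and 27.3 CPM in Tbr2-negative nuclei, with no overlap and a change of 1.04 ± 0.20 (adjusted p = 0.00213). Rpa2 (ENSMUSG00000028884), the middle subunit of replication protein A, stood at 52.5, 88.4 and 61.8 CPM in Tbr2-positive nuclei, against 27.3, 37.0 and 35.2 CPM in Tbr2-negative nuclei, at 1.03 ± 0.23 (adjusted p = 0.00586). Fen1, the flap endonuclease, passed with low values of 3.58, 5.36 and 4.53 CPM in Tbr2-positive nuclei, against 1.23, 2.18 and 0.926 CPM in Tbr2-negative nuclei. Its change of 1.64 ± 0.48 (adjusted p = 0.0267) rests on few counts and ended without Tbr2-positive vehicle library 2 (1.51, adjusted p = 0.0864), Tbr2-positive vehicle library 3 (1.64, adjusted p = 0.0613), Tbr2-negative vehicle library 1 (1.54, adjusted p = 0.0808) and Tbr2-negative vehicle library 3 (1.41, adjusted p = 0.0925). The libraries do not keep strand, so counts could be shared with overlapping neighbours. The other 2 subunits of replication protein A did not pass and their groups overlapped. Rpa1 stood at 56.5, 79.9 and 67.3 CPM in Tbr2-positive nuclei, against 67.1, 49.7 and 51.7 CPM in Tbr2-negative nuclei (0.27 ± 0.18, adjusted p = 0.32), and Rpa3 at 79.1, 99.3 and 112 CPM in Tbr2-positive nuclei, against 84.3, 110.2 and 86.2 CPM in Tbr2-negative nuclei (0.05 ± 0.17, adjusted p = 0.881).

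All 3 genes of deoxynucleotide supply were higher in Tbr2-positive vehicle nuclei and had the highest median log2 fold change of the 8 role groups, at 1.59. Rrm1 (ENSMUSG00000030978), the large subunit of ribonucleotide reductase, stood at 262, 338 and 250.01 CPM in Tbr2-positive nuclei, against 78.6, 109.6 and 95.0 CPM in Tbr2-negative nuclei, with the smallest adjusted p of the 43 at 1.59 ± 0.18 (adjusted p = 7.37e-05). Rrm2 (ENSMUSG00000020649), its small subunit, stood at 115, 184 and 102 CPM in Tbr2-positive nuclei, against 34.6, 39.4 and 46.2 CPM in Tbr2-negative nuclei, at 1.74 ± 0.26 (adjusted p = 0.00042). Tyms, thymidylate synthase, stood at 144, 147 and 111 CPM in Tbr2-positive nuclei, against 64.3, 69.0 and 77.4 CPM in Tbr2-negative nuclei, at 0.94 ± 0.17 (adjusted p = 0.00186). No library of these genes overlapped between the fractions. Of the genes that act on chromatin behind the fork, 2 of 3 were higher. Uhrf1 (ENSMUSG00000001228), which binds newly copied half-methylated DNA, stood at 48.4, 67.1 and 54.8 CPM in Tbr2-positive nuclei, against 31.2, 13.7 and 11.8 CPM in Tbr2-negative nuclei (1.58 ± 0.31, adjusted p = 0.00258). Chaf1b (ENSMUSG00000022945), a subunit of the histone chaperone CAF-1, stood at 63.3, 63.6 and 56.0 CPM in Tbr2-positive nuclei, against 36.4, 36.0 and 24.1 CPM in Tbr2-negative nuclei (0.92 ± 0.22, adjusted p = 0.0103). Its partner Chaf1a was low and its groups overlapped, with 10.53, 5.89 and 8.28 CPM in Tbr2-positive nuclei, against 6.25, 2.08 and 5.51 CPM in Tbr2-negative nuclei and 0.83 ± 0.43 (adjusted p = 0.205). Both cyclin E genes were higher, with separate groups. Ccne1 (ENSMUSG00000002068) stood at 12.8, 15.9 and 11.1 CPM in Tbr2-positive nuclei, against 5.03, 5.80 and 2.87 CPM in Tbr2-negative nuclei (1.54 ± 0.33, adjusted p = 0.00462). Ccne2 (ENSMUSG00000028212) stood at 58.0, 77.6 and 47.4 CPM in Tbr2-positive nuclei, against 22.4, 27.4 and 22.7 CPM in Tbr2-negative nuclei (1.34 ± 0.20, adjusted p = 0.00051).

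**Figure D2:**
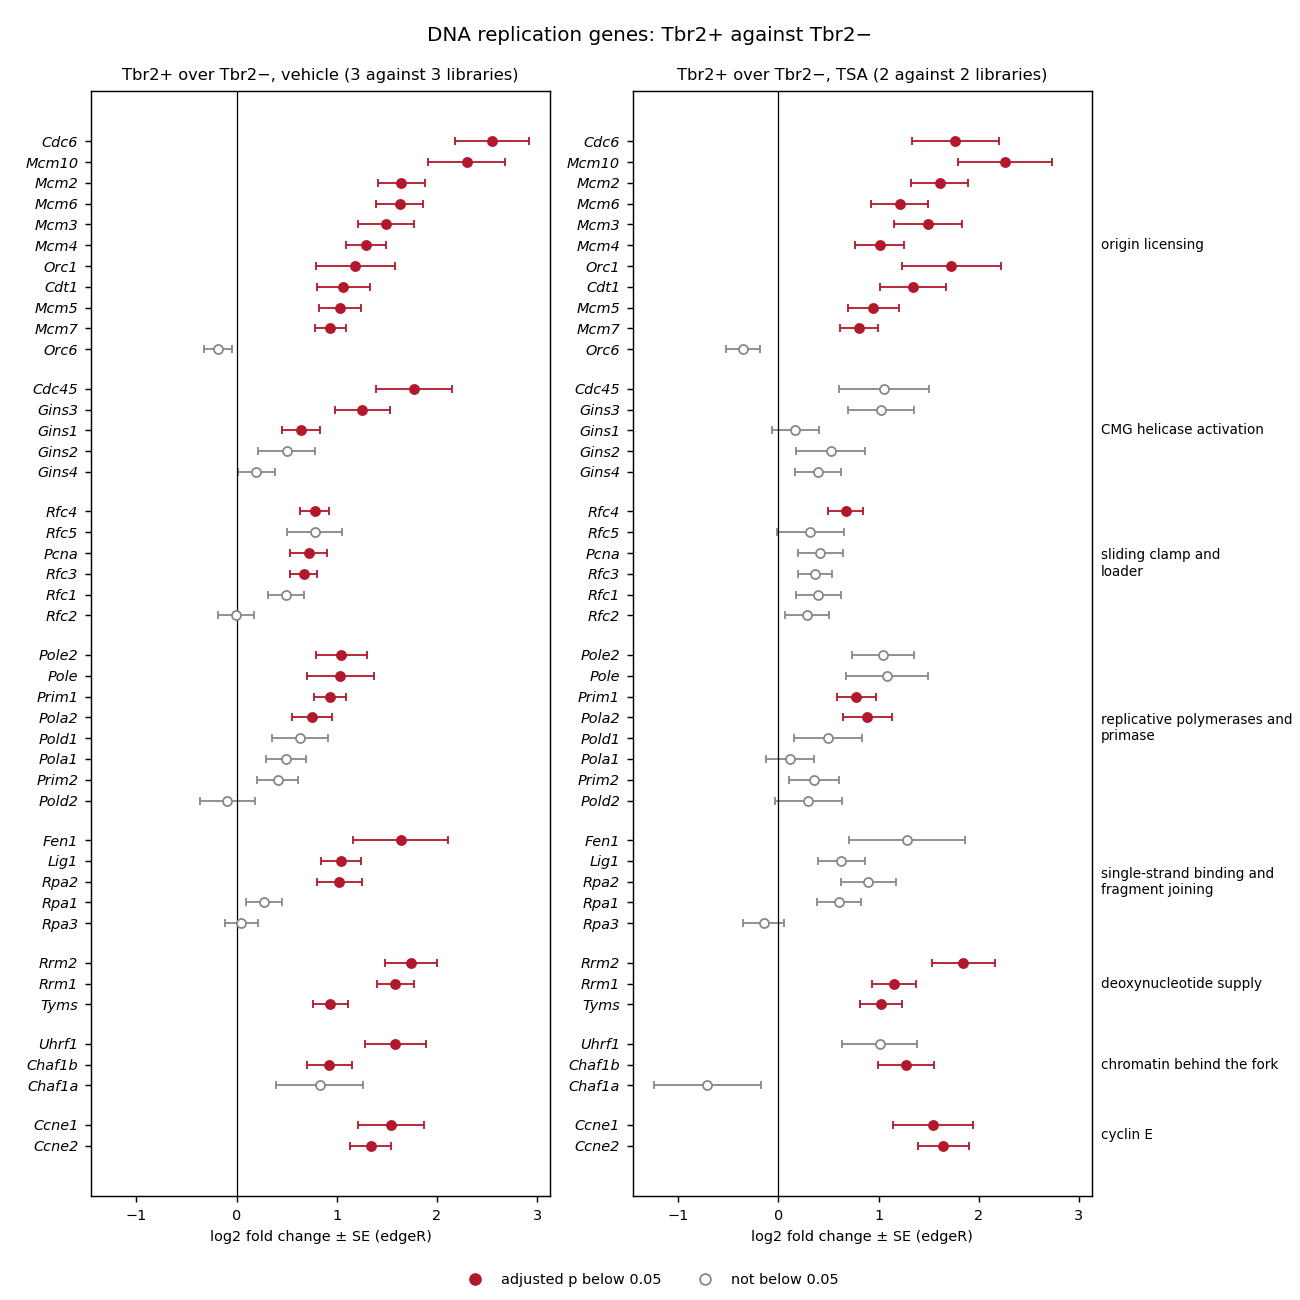
Log2 fold change ± SE (x axis) of each of the 43 genes between Tbr2-positive and Tbr2-negative nuclei, with vehicle on the left and TSA on the right, ordered by role; filled points passed an adjusted p of 0.05 in edgeR. With vehicle 30 genes are filled and with TSA 19, and all filled points lie to the right of 0.

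After TSA the same comparison rested on 2 against 2 libraries, and 15 genes that were higher in both Tbr2-positive libraries than in both Tbr2-negative ones did not pass. Of the 11 licensing genes 10 were higher in Tbr2-positive nuclei, the 10 that were higher with vehicle. Mcm2 stood at 95.5 and 104 CPM in Tbr2-positive nuclei, against 22.3 and 43.2 CPM in Tbr2-negative nuclei, at 1.61 ± 0.28 (adjusted p = 0.00411). Mcm10 stood at 7.81 and 17.8 CPM in Tbr2-positive nuclei, against 2.38 and 2.93 CPM in Tbr2-negative nuclei (2.27 ± 0.47, adjusted p = 0.00941). Cdc6 stood at 30.3 and 18.5 CPM in Tbr2-positive nuclei, against 6.43 and 7.90 CPM in Tbr2-negative nuclei (1.77 ± 0.44, adjusted p = 0.0234). Orc1 stood at 6.62 and 5.70 CPM in Tbr2-positive nuclei, against 1.46 and 2.26 CPM in Tbr2-negative nuclei (1.72 ± 0.49, adjusted p = 0.0451). Cdt1, its partner in licensing, stood at 21.6 and 18.4 CPM in Tbr2-positive nuclei, against 6.43 and 9.33 CPM in Tbr2-negative nuclei (1.34 ± 0.33, adjusted p = 0.0219). These groups were separate. Mcm3 stood at 70.0 and 44.7 CPM in Tbr2-positive nuclei, against 15.2 and 25.6 CPM in Tbr2-negative nuclei (1.49 ± 0.34, adjusted p = 0.0159), Mcm4 at 62.6 and 45.0 CPM in Tbr2-positive nuclei, against 24.2 and 29.2 CPM in Tbr2-negative nuclei (1.01 ± 0.24, adjusted p = 0.0209). Mcm5, of the same ring, stood at 100.3 and 57.4 CPM in Tbr2-positive nuclei, against 41.1 and 40.7 CPM in Tbr2-negative nuclei (0.95 ± 0.25, adjusted p = 0.0334), and Mcm6 at 157 and 83.0 CPM in Tbr2-positive nuclei, against 44.6 and 59.0 CPM in Tbr2-negative nuclei (1.21 ± 0.28, adjusted p = 0.0181), both with a first positive library far above the second. Mcm7 stood at 166 and 124 CPM in Tbr2-positive nuclei, against 83.6 and 82.0 CPM in Tbr2-negative nuclei (0.80 ± 0.19, adjusted p = 0.0208). Orc6 went the other way in its libraries, with 126 and 135 CPM in Tbr2-positive nuclei, against 178 and 156 CPM in Tbr2-negative nuclei, but did not pass at -0.36 ± 0.17 (adjusted p = 0.229).

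All 3 deoxynucleotide genes and both cyclin E genes also passed after TSA. Rrm2 stood at 189 and 109 CPM in Tbr2-positive nuclei, against 34.2 and 48.6 CPM in Tbr2-negative nuclei (1.85 ± 0.32, adjusted p = 0.00362), Rrm1 at 196 and 213 CPM in Tbr2-positive nuclei, against 75.9 and 108 CPM in Tbr2-negative nuclei (1.15 ± 0.22, adjusted p = 0.0066) and Tyms at 136 and 124 CPM in Tbr2-positive nuclei, against 51.7 and 76.1 CPM in Tbr2-negative nuclei (1.02 ± 0.21, adjusted p = 0.0095). Ccne2 stood at 69.2 and 60.9 CPM in Tbr2-positive nuclei, against 17.9 and 23.6 CPM in Tbr2-negative nuclei (1.65 ± 0.25, adjusted p = 0.00201), and Ccne1 at 17.6 and 12.4 CPM in Tbr2-positive nuclei, against 5.80 and 4.47 CPM in Tbr2-negative nuclei (1.55 ± 0.40, adjusted p = 0.0293). The remaining calls were those of 4 genes with separate groups. Rfc4, of the clamp loader, stood at 125 and 113 CPM in Tbr2-positive nuclei, against 75.0 and 74.4 CPM in Tbr2-negative nuclei (0.67 ± 0.17, adjusted p = 0.0302). Prim1, of primase, stood at 136 and 113 CPM in Tbr2-positive nuclei, against 78.8 and 67.1 CPM in Tbr2-negative nuclei (0.78 ± 0.20, adjusted p = 0.0267), and Pola2 at 46.2 and 33.5 CPM in Tbr2-positive nuclei, against 22.7 and 20.4 CPM in Tbr2-negative nuclei (0.89 ± 0.24, adjusted p = 0.0374). Chaf1b, of CAF-1, stood at 83.1 and 57.2 CPM in Tbr2-positive nuclei, against 35.8 and 22.3 CPM in Tbr2-negative nuclei (1.27 ± 0.28, adjusted p = 0.0126), while its partner Chaf1a stood at 3.31 and 3.55 CPM in Tbr2-positive nuclei, against 7.10 and 4.14 CPM in Tbr2-negative nuclei and did not pass (-0.71 ± 0.54, adjusted p = 0.48). Of the 5 helicase activation genes, a group without Mcm10, 0 passed in edgeR, at adjusted p from 0.0746 to 0.742. Of these 5 genes 2 were at an unadjusted p under 0.05 and 1 was called by DESeq2. Of the 5 for single-strand binding and joining 0 passed, at 0.0609 to 0.736, with 4 at an unadjusted p under 0.05 and 1 called by DESeq2. Leaving out any 1 TSA library left 1 library in its group. Fewer genes then passed, among the 43 and over all genes alike. Tbr2-positive TSA library 1 was the higher of its pair for 33 of 43 genes, and the summed mitosis markers stood at 704 and 445 CPM in libraries 1 and 2 of that group. As with vehicle, 7 of 8 mitosis markers were higher and 8 of 8 interneuron markers lower in Tbr2-positive nuclei. The part of these differences in the result was not tested. Mcm2, Rrm2 and Ccne2 were called in all 15 alternative fits of this comparison. The call of Orc1 ended in 11 of the 15, which were no filter on low counts (1.76, adjusted p = 0.0545), the fit of 2 groups (1.75, adjusted p = 0.1) and the 9 fits that left out any 1 library other than Tbr2-positive vehicle library 3, with log2 changes of 1.49 (adjusted p = 0.257) without Tbr2-negative TSA library 1 and 1.63 (adjusted p = 0.141) without Tbr2-positive TSA library 1. The other 15 calls ended in 1 to 4 of the 15.

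**Figure D3:**
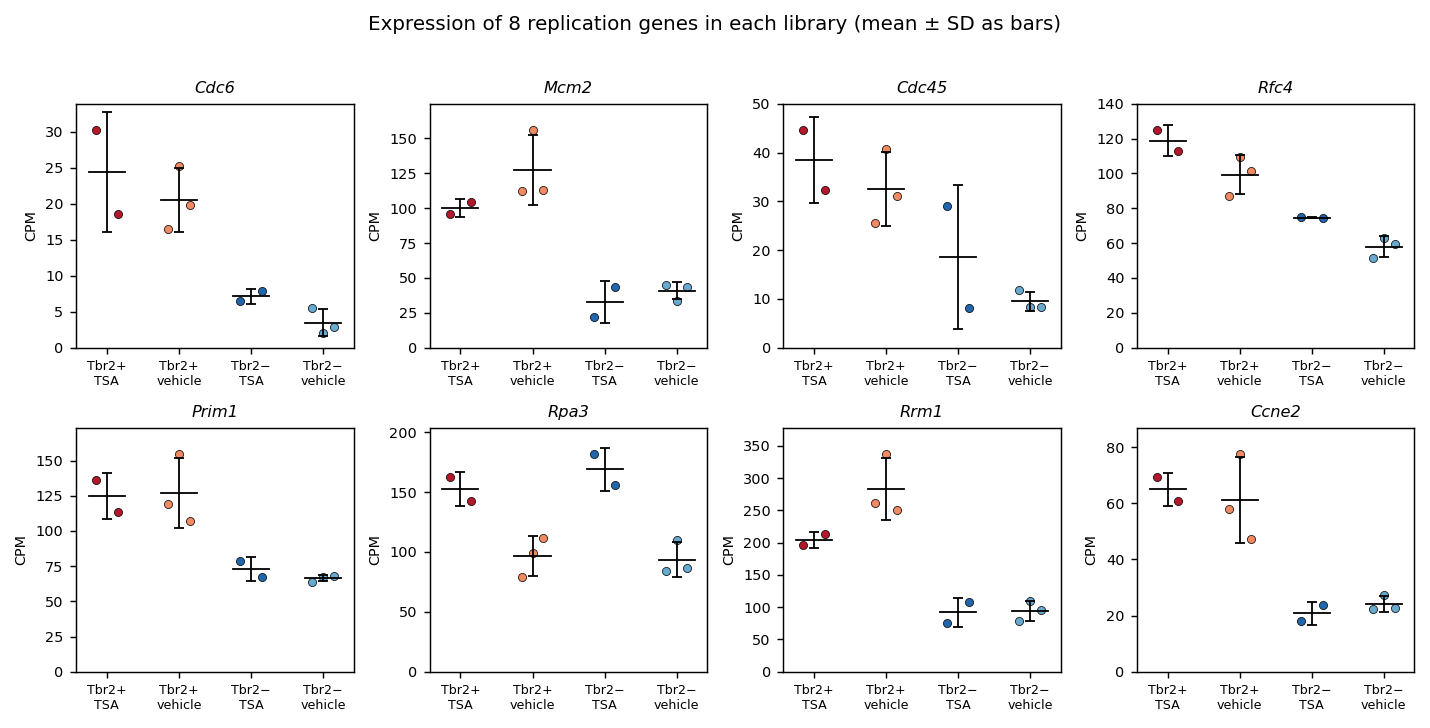
CPM (y axis) of 8 replication genes in every RNA library, with Tbr2-positive TSA, Tbr2-positive vehicle, Tbr2-negative TSA and Tbr2-negative vehicle nuclei from left to right; points are libraries and bars the mean ± SD. Cdc6, Mcm2, Cdc45, Rfc4, Prim1, Rrm1 and Ccne2 separate by fraction under both treatments, while Rpa3 separates by treatment.

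Few replication genes passed for TSA against vehicle in edgeR, and few of all genes tested did. In Tbr2-positive nuclei 0 of 43 genes passed for TSA against vehicle, as did 0.0% of all genes, with a median log2 fold change of 0.08 against -0.04 over all genes. At an unadjusted p under 0.05 there were 5 of 43 genes, against 15.8% of all genes. A DESeq2 fit called 1 of the 43, where it called 5.93% of all genes. Rpa3, the small subunit of replication protein A, had the smallest p of the 43, with 163 and 142 CPM in TSA-treated Tbr2-positive nuclei, against 79.1, 99.3 and 112 CPM in vehicle-treated ones. The groups were separate, at 0.66 ± 0.18 (adjusted p = 0.12), and Rpa3 was the gene called by DESeq2 (0.66, adjusted p = 0.0242). Chaf1a stood at 3.31 and 3.55 CPM in TSA-treated Tbr2-positive nuclei, against 10.53, 5.89 and 8.28 CPM in vehicle-treated ones (-1.26 ± 0.50, adjusted p = 0.244), and Rrm1 at 196 and 213 CPM in TSA-treated Tbr2-positive nuclei, against 262, 338 and 250.01 CPM in vehicle-treated ones (-0.47 ± 0.20, adjusted p = 0.279). Both were lower in every TSA library without passing the test. In all, 4 of the 43 genes were higher in every TSA library (15.9% of all genes) and 4 lower (17.6%), the lower ones being Mcm2, Rrm1, Chaf1a and Uhrf1.

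In Tbr2-negative nuclei 1 of 43 genes passed for TSA against vehicle, where 0.817% of all genes were higher and 0.359% lower, with a median of 0.09 against -0.08. The 236 calls over all genes became 0 without any 1 of 5 libraries, which were Tbr2-positive vehicle library 2, Tbr2-negative vehicle libraries 1 and 3 and both Tbr2-negative TSA libraries, and became 386 without Tbr2-positive vehicle library 1, 516 without Tbr2-positive TSA library 1 and 677 without Tbr2-negative vehicle library 2. At an unadjusted p under 0.05 there were 7 of 43, against 20.1% of all genes. The gene that passed was Rpa3 (ENSMUSG00000012483), with 182 and 156 CPM in TSA-treated Tbr2-negative nuclei, against 84.3, 110.2 and 86.2 CPM in vehicle-treated ones. The lowest TSA library was above the highest vehicle library, at 0.85 ± 0.18 (adjusted p = 0.0482). The call ended without Tbr2-positive vehicle library 2 (0.86, adjusted p = 0.0786), Tbr2-negative vehicle library 1 (0.78, adjusted p = 0.177), Tbr2-negative vehicle library 3 (0.80, adjusted p = 0.14), Tbr2-negative TSA library 1 (0.75, adjusted p = 0.513) and Tbr2-negative TSA library 2 (0.96, adjusted p = 0.0642), and with the replicate number as a block (0.89, adjusted p = 0.0658). Orc6 stood at 178 and 156 CPM in TSA-treated Tbr2-negative nuclei, against 105, 133 and 115 CPM in vehicle-treated ones (0.51 ± 0.15, adjusted p = 0.0919), and Gins1 at 50.9 and 40.7 CPM in TSA-treated Tbr2-negative nuclei, against 30.0, 32.2 and 27.5 CPM in vehicle-treated ones (0.62 ± 0.21, adjusted p = 0.124). Neither passed in edgeR, while DESeq2 called Orc6 (0.50, adjusted p = 0.0262). DESeq2 called 2 of the 43 in this comparison, where it called 11.7% of all genes. Higher values in both TSA libraries were found for 14 of 43 genes (19.7% of all genes) and lower ones for 1, Orc1 (21.0%). The difference of the TSA effect between the fractions passed for 0 of 43 genes and 0.0% of all genes in edgeR, with 1 of 43 at an unadjusted p under 0.05 against 5.49% of all genes, and DESeq2 also called 0 of the 43. The gene at that p was Chaf1a, with -1.54 ± 0.69 (adjusted p = 0.895). The difference was positive for 15 of 43 genes, against 50.3% of all genes. The summed level of 78 ribosomal protein genes was 13678 to 15619 CPM with TSA and 6657 to 9928 CPM with vehicle in Tbr2-positive nuclei, and 14242 to 18226 CPM with TSA and 7746 to 11213 CPM with vehicle in Tbr2-negative nuclei. Of 8 nuclear long noncoding RNAs, 0 passed in either fraction in edgeR, with 4 of them at an unadjusted p under 0.05 in the positive fraction and 5 in the negative one, and 0 and 2 called by DESeq2, with sums of 6329.9 to 12514 CPM with TSA and 10736 to 14611 CPM with vehicle in Tbr2-positive nuclei, and 6023 to 8343 CPM with TSA and 8814 to 13844 CPM with vehicle in Tbr2-negative nuclei. Their part in the values of Rpa3 was not tested. Of 8 interneuron markers edgeR called 2 and DESeq2 3 higher with TSA in Tbr2-negative nuclei, at 1196 to 1284 CPM with TSA and 652 to 756 CPM with vehicle. Of 8 radial glia markers each tool called 1 higher there, and of 8 neuron markers edgeR called 0 and DESeq2 1. Of all genes edgeR called 0.817% higher and DESeq2 called 11.7% in either direction.

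**Figure D4:**
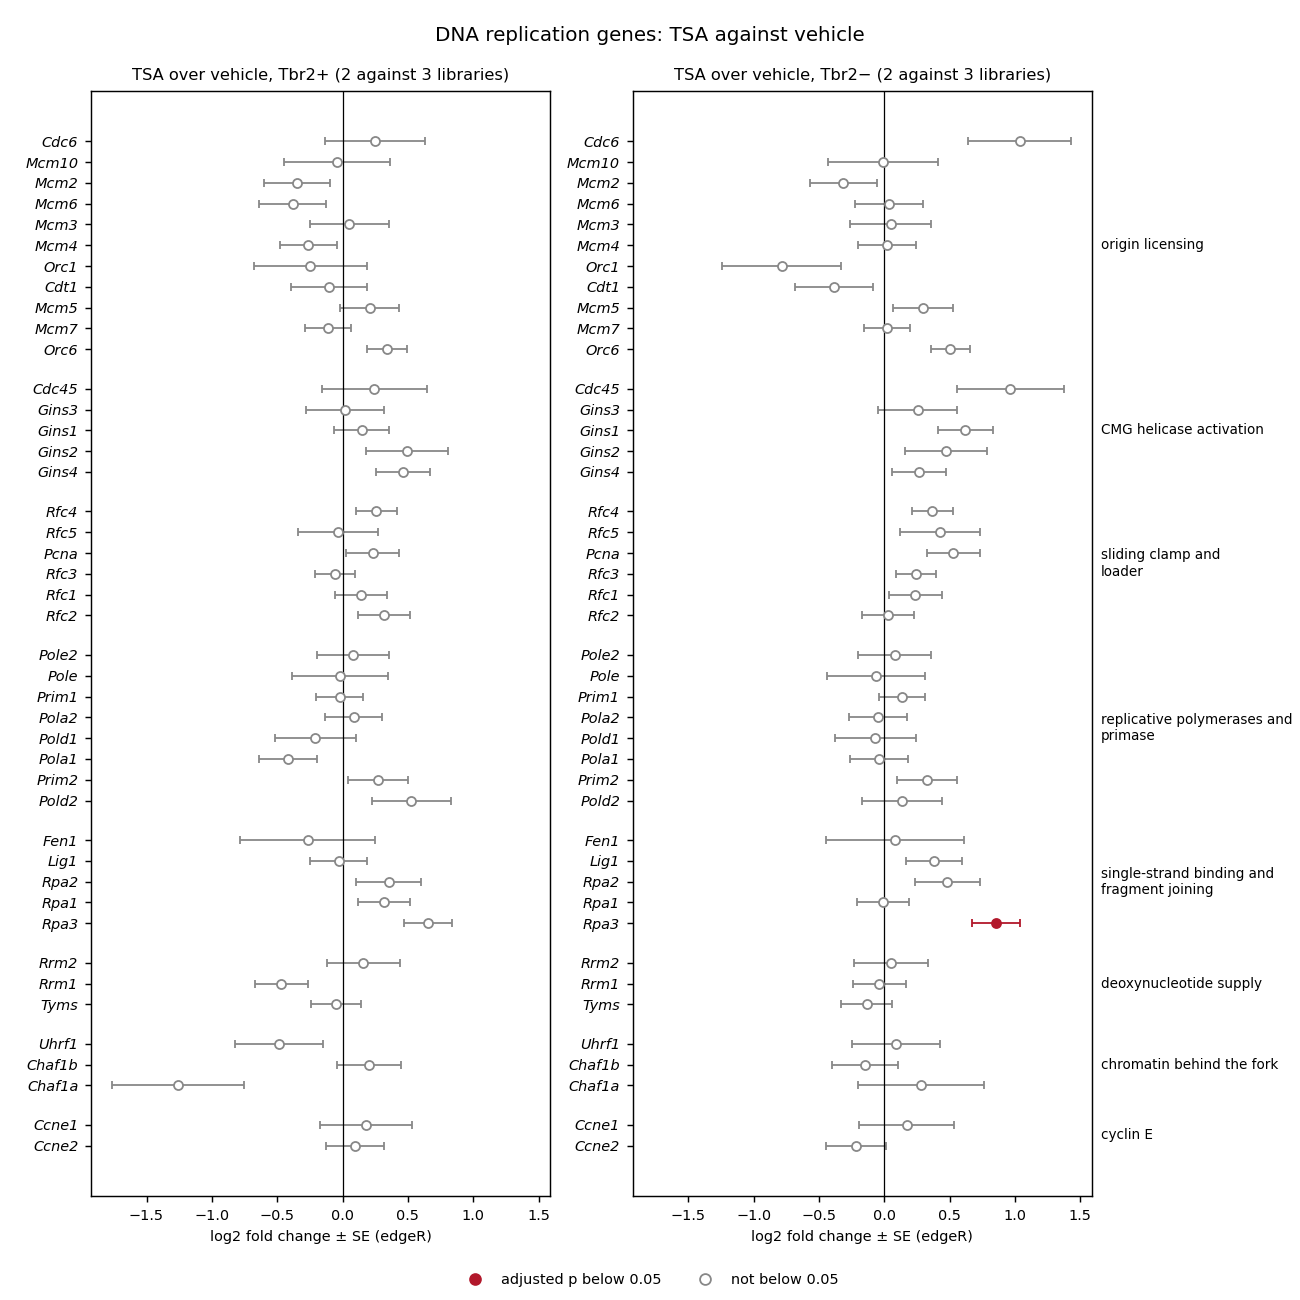
Log2 fold change ± SE (x axis) of each of the 43 genes between TSA-treated and vehicle-treated nuclei, with Tbr2-positive nuclei on the left and Tbr2-negative nuclei on the right, in the order of roles; filled points passed an adjusted p of 0.05 in edgeR. Rpa3 in Tbr2-negative nuclei is the filled point, and most values lie within 1 unit of 0.

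Of 48 other replication genes, chosen by role and outside the 43, edgeR called 25 higher and 0 lower in Tbr2-positive vehicle nuclei, and DESeq2 called 26 higher and 1 lower. Their median log2 change in edgeR was 0.66. After TSA edgeR called 16 higher and 0 lower, and DESeq2 19 and 0, with an edgeR median of 0.46. Over all genes edgeR called 9.96% higher and 11.5% lower with vehicle, and 4.19% and 5.13% with TSA. DESeq2 called 25.9% of all genes in either direction with vehicle and 15.1% with TSA. Rnaseh2b, a subunit of the RNase that removes ribonucleotides from DNA, stood at 57.9, 69.9 and 75.9 CPM in Tbr2-positive nuclei, against 26.9, 25.4 and 24.7 CPM in Tbr2-negative nuclei (1.40 ± 0.17, adjusted p = 8.72e-05). Clspn, the fork protein claspin, stood at 27.9, 33.3 and 24.0 CPM in Tbr2-positive nuclei, against 8.54, 6.87 and 7.36 CPM in Tbr2-negative nuclei (1.90 ± 0.23, adjusted p = 0.000108). Top2a, a topoisomerase of dividing cells, stood at 158, 173 and 127 CPM in Tbr2-positive nuclei, against 62.2, 58.5 and 48.4 CPM in Tbr2-negative nuclei (1.44 ± 0.19, adjusted p = 0.000191). In all 3 every positive library was above every negative one. Of 17 regulators of S phase, edgeR called 9 higher and 0 lower with vehicle (median 0.72, DESeq2 10 and 0). With TSA edgeR called 7 of the 17 higher and 0 lower (median 0.74, DESeq2 7 and 0). The shares over all genes were those given above. Cdk2, the kinase partner of cyclin E and named here after its values were seen, stood at 20.2, 33.0 and 26.2 CPM in Tbr2-positive nuclei, against 7.52, 5.64 and 8.75 CPM in Tbr2-negative nuclei (1.85 ± 0.25, adjusted p = 0.000237). For TSA against vehicle, 0 of these 48 and 0 of these 17 genes passed in either fraction in edgeR, with 9 and 2 at an unadjusted p under 0.05 in Tbr2-positive nuclei (15.8% of all genes) and 10 and 4 in Tbr2-negative nuclei (20.1% of all genes). DESeq2 called 0 of both lists in Tbr2-positive nuclei, where it called 5.93% of all genes, and 4 of the 48 and 0 of the 17 in Tbr2-negative nuclei, where it called 11.7%.

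H3K9ac marks promoters of active genes, and the replication genes carried it in both fractions. A gene counted as marked where the authors' list for a library held a peak within 1 kb of either end of the RefSeq gene. This held for 40 or 41 of 43 genes in each Tbr2-positive TSA library, 41 in each Tbr2-positive vehicle library, 40 or 41 in each Tbr2-negative TSA library and 41 in each Tbr2-negative vehicle library. Among all 49943 RefSeq genes the share was 32.2% to 39.9%, and among 16902 genes tested for RNA it was 74.8% to 82.2%. No replication gene gained or lost its peak, in the sense of a peak in all libraries of one group and none of the other, in any of the 4 comparisons. Among all genes, 0.156% gained and 0.318% lost one in Tbr2-positive against Tbr2-negative vehicle nuclei, and 0.00801% and 0.969% with TSA. For TSA against vehicle the shares were 0.002% gained and 0.937% lost in Tbr2-positive nuclei, and 0.016% gained and 0.038% lost in Tbr2-negative nuclei. With these group sizes Fisher's exact test could not go below a two-sided p of 0.0286 for a gene, and after adjustment over all genes no gene passed, with 0 of the 43 at an unadjusted p under 0.05. The mark was thus present on genes that passed for RNA between the fractions and on genes that did not pass.

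Mcm3, Orc1 and Rfc1 were the exceptions. Mcm3 (chr1:20802966-20820312, minus strand) had a gene-end peak in 13 of 15 libraries, lacking it in Tbr2-positive TSA library 2 and Tbr2-negative TSA library 4. Within 1 kb of its start, Tbr2-positive TSA library 1 had no peak either. Where present, the Mcm3 start peak had a best −log10 q of 3.34 to 8.77. An absent peak here means that none was called, and the lists differed in length, so loss of the mark cannot be told apart from a missed call. Orc1 (chr4:108575705-108616030, plus strand) and Rfc1 (chr5:65261852-65338617, minus strand) had none in 15 libraries by that window. Both had a peak in 15 of 15 libraries within 1 kb of the start in the promoter table, which lies inside the RefSeq gene span. A window on that start, added after the first result was seen, was used for the extent of the mark.

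The extent was taken as the bases under peaks among the 2001 around the start, for 35 replication genes. Peak height was not compared, because each list was called on its own. Tbr2-positive vehicle libraries had a higher median difference to Tbr2-negative ones over the 35 genes, at 52.2 bases, than over the 16067 genes with any peak at the start, at -37.0 bases. Every positive library covered more than every negative one for 6 of 35 genes (4.22% of all), and fewer for 2 (15.4%). Orc1 had 1937, 1574 and 1579 bases in Tbr2-positive vehicle libraries, against 958, 1438, 1322 and 1350 in Tbr2-negative vehicle libraries. Rrm1 had 1253, 1201 and 1312 bases in Tbr2-positive libraries, against 1002, 1101, 1020 and 1089 in Tbr2-negative ones. Uhrf1 had 1011, 1007 and 1005 bases in Tbr2-positive libraries, against 630, 776, 976 and 814 in Tbr2-negative ones. The gaps between groups were small for Uhrf1 and Rrm1 and wider for Orc1, and the other genes with more bases were Rfc1, Chaf1a and Fen1. Cdc45 went the other way, with 1528, 1470 and 1427 bases in Tbr2-positive libraries, against 1616, 1535, 1721 and 1588 in Tbr2-negative ones, as did Rfc5 with 1149, 1110 and 1147 bases, against 1311, 1189, 1217 and 1303. Of the 6 genes with more covered bases, Orc1, Rrm1, Uhrf1 and Fen1 had passed for RNA and Rfc1 and Chaf1a had not. Of the 2 with fewer, Cdc45 had passed as higher in RNA and Rfc5 had not passed. Among the 35 genes, 7 of the 8 with an E2F form and 19 of the 27 without one had passed. A link between covered bases and RNA was not tested. When each list was limited to its 30000 highest peaks, ranked by −log10 q, 5 genes had more (4.08% of genes) and 1, Cdc45, had fewer (16.9%). Rrm1 then overlapped, with 965, 948 and 1312 bases in Tbr2-positive vehicle libraries, against 839, 895, 859 and 1089 in Tbr2-negative vehicle libraries. With TSA the median difference was -66.2 bases over the 35 genes, with 24 of 35 negative, against -120.8 over all genes. With the 30000 highest peaks its sign changed, to 26.2 with 16 of 35 negative, against -113.8 over all genes. Tbr2-positive TSA lists held 31823 to 40053 peaks, against 47835 to 78929 in Tbr2-negative TSA lists. Their inputs had 20118388 and 25947550 tags. Fraction, depth and input cannot be told apart in this comparison. In every TSA library, 0 of 35 had more (0.417%) and 1, Prim1, had fewer (25.0%).

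In Tbr2-positive nuclei peaks covered fewer bases at these starts with TSA than with vehicle. The median over the 35 genes was 919, 982, 891 and 1005 covered bases in the 4 TSA libraries, against 1234, 1148 and 1147 in the 3 vehicle libraries. The median difference was -208 bases, against -122.5 over the 16067 genes with a start peak in any library. Of those 16067 genes, 12009 to 13795 had a start peak in each library of this comparison, against 34 or 35 of the 35. The sets are thus unlike. On average 34 of 35 genes had fewer bases. No gene of the 35 had more in every TSA library (0.162% of all), and 19 had fewer (26.9%). Pcna had 1207, 1413, 1175 and 1137 bases with TSA, against 1571, 1489 and 1520 with vehicle. Limited to 30000 peaks a library, 12 of 35 had fewer (23.2%) and 0 more (0.36%). The whole lists moved with this comparison. Tbr2-positive TSA libraries held 31823 to 40053 peaks, against 61487 to 82164 in Tbr2-positive vehicle libraries, and their single input had 20118388 tags, against 30061311 in the vehicle input. Depth, input and treatment cannot be told apart here. In Tbr2-negative nuclei the median difference was -57.2 bases, against -32.0 over all genes, with 0 genes higher (0.853%) and 3 lower (3.07%) in every TSA library. These were Pcna, Ccne1 and Rrm1. Ccne1 had 1116, 930, 1088 and 644 bases with TSA, against 1420, 1540, 1376 and 1298 with vehicle, and its groups did not overlap. The library with 644 bases had 15173175 ChIP tags, against 22199383 to 23073573 in the other Tbr2-negative TSA libraries. Pcna had 1336, 1238, 1216 and 1407 bases with TSA, against 1408, 1597, 1424 and 1518 with vehicle, a gap of 1 base. None of the 3 had passed for RNA in that comparison. Limited to 30000 peaks, 2 genes had fewer (3.6%), Mcm6 and Pcna.

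**Figure D5:**
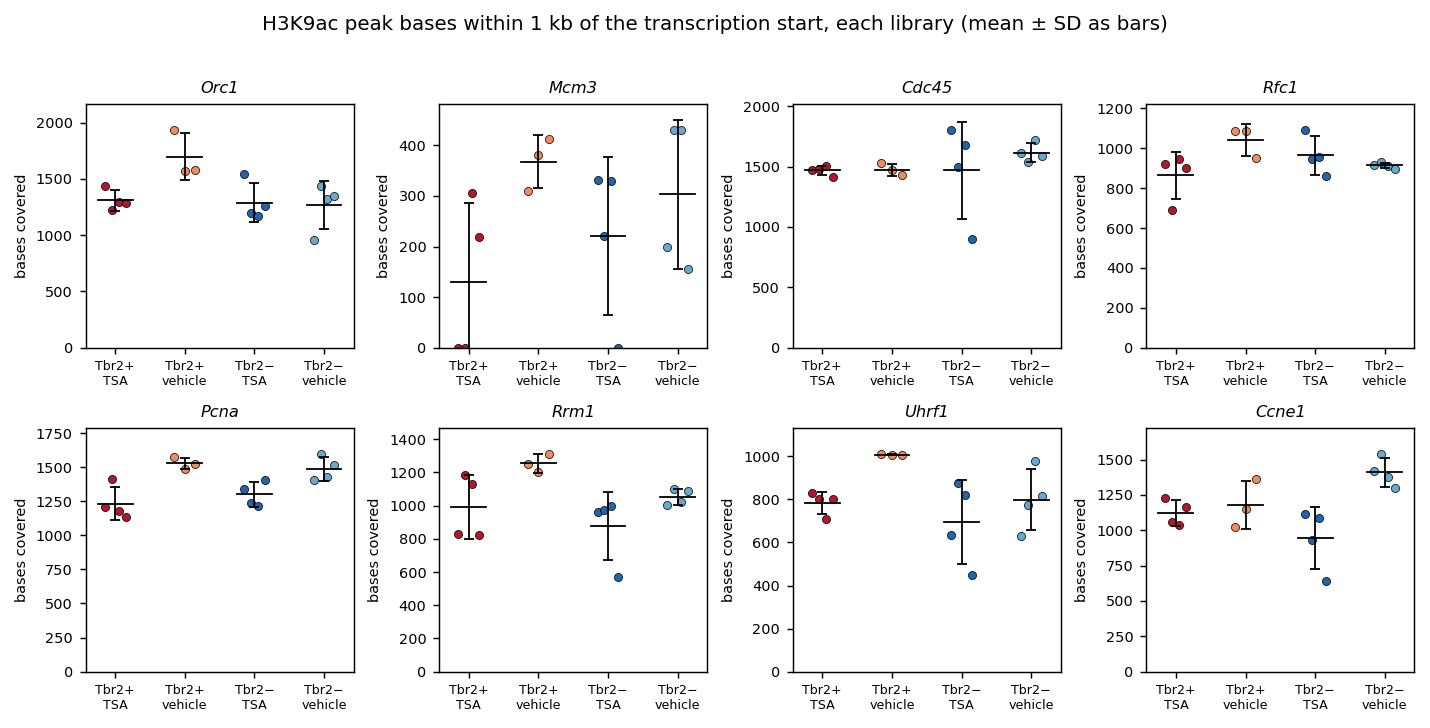
Bases under H3K9ac peaks within 1 kb of the start (y axis) of 8 replication genes in every ChIP library, with Tbr2-positive TSA, Tbr2-positive vehicle, Tbr2-negative TSA and Tbr2-negative vehicle nuclei from left to right; points are libraries and bars the mean ± SD. With all peaks, Orc1, Rrm1 and Uhrf1 have more covered bases in Tbr2-positive than in Tbr2-negative vehicle libraries. Mcm3 is at 0 in 3 TSA libraries, where no start peak was called.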

How the data were processed

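RNA-seq of 10 libraries and H3K9ac ChIP-seq of 15 libraries were used, and the ChIP inputs were not analysed here. The counts per gene were deposited by the authors as whole reads per Ensembl gene, and the counting tool is not given in the sources used here. RNA libraries were made with a kit that does not mark strand, per the labels' protocols. Peaks were called per library by MACS2 at a q cutoff of 0.1 on mm10 with 1 input per group, per the file headers, which also state that the larger of ChIP and input was scaled to the smaller. The authors' peak lists hold pileup height as signal, fold enrichment over input as a ratio, and −log10 p and q values. Only positions and −log10 q of the deposited lists were used here.

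Counts were filtered with filterByExpr, scaled by TMM and fitted over all 10 libraries with edgeR 4.0.16 (quasi-likelihood, robust, R 4.3.3), with Benjamini-Hochberg adjustment over 20078 genes. DESeq2 1.42.0 was an alternative. The fit was first tested on simulated data. Replicates of a group differed by 26.5 to 47.5 times the sampling variance, so none was taken as a copy. RNA libraries held 18567111 to 26282652 counts, so genes at a few CPM rest on few reads. Gene names were matched through the supplied name table, and 48349 of 48709 identifiers had a symbol.

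The members and lists were chosen with earlier results of these data known. Full values are given for the 2 genes of each role group with the smallest p in the vehicle comparison, those that did not pass there, those that passed elsewhere, the 3 with the smallest p for TSA, and Mcm2, Pcna, Ccne1 and Ccne2. Other members are given as well. Of the other replication genes the 3 with the smallest p are named. A window on the promoter table's start was added after seeing the data.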

Additional observations from a re-analysis of the deposited data

Results flagged for a closer look

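Of 54 groups of 4 ChIP libraries examined for a value far from the other 3, 4 were noted. Chance gives about 1 in 20 for values without ties, and that rate does not apply to 3 of the 4, in which the other 3 libraries were tied. Tbr2-positive TSA library 2 had a gene-end peak at 40 of the 43 replication genes, against 41 in the other 3 libraries of its group, and Tbr2-negative TSA library 4 had 40, against 41. Both lacked the peak of Mcm3. At the start of Rrm1, Tbr2-negative TSA library 4 had 569 covered bases, against 961 to 999 in the others. This library 4 had 15173175 ChIP tags, against 22199383 to 23073573 in the others of its group. It held 47835 peaks, against 62329 to 78929. The part of depth in these values was not tested. At the start of Orc6, Tbr2-positive TSA library 2 had 1859 covered bases, against 2001 in the others.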

How the results depend on the processing

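In the vehicle comparison of the fractions, 30 to 32 replication genes were called under other scaling, no filter, DESeq2, a replicate block and a fit of 2 groups. When 1 library was left out, 25 to 30 were called. Over all genes the shares there were 14.2% to 25.9% under the other settings and 16.1% to 20.8% without 1 library. The other settings called 6.64% to 15.1% of all genes with TSA. Of the 30 genes, 24 were called in all 15 alternatives. With TSA the count was 16 to 23 under the other settings and 5 to 21 without 1 library. For TSA against vehicle, DESeq2 called 1 gene in the positive fraction and 2 in the negative one. In Tbr2-negative nuclei the replicate block gave 0, and leaving out 1 library gave 0 to 1. The count for the difference of effects was 0 throughout. Over all genes, TSA against vehicle gave 1065 calls by DESeq2, 364 with no filter and 13 with the replicate block, against 0, in Tbr2-positive nuclei, and 2029, 944 and 14, with 401 for 2 groups, against 236, in Tbr2-negative nuclei, where leaving out 1 library gave 0 to 677. DESeq2 called 3052 against 1871 genes between the fractions with TSA, and 12 against 0 for the difference of effects. The cause of these changes was not tested.

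The uncalled log2 value of Rfc2 with vehicle (-0.01) turned to 0.01 with RLE scaling and DESeq2, to 0.02 with no filter and with 2 groups, and ranged from -0.2 to 0.13 without 1 library. Pold2 ranged from -0.22 to 0.09 and Rpa3 from -0.06 to 0.2. No called gene changed sign. The mean number of replication genes with a gene-end peak differed by -0.25 between TSA and vehicle in Tbr2-positive nuclei and by 0 between the fractions. At a −log10 q of at least 5 it differed by -2 for TSA in Tbr2-positive nuclei, by 0.5 between the fractions with vehicle and by -1.25 with TSA, and with the 30000 highest peaks by 0.25 and 0.75. Same-numbered vehicle libraries of the 2 fractions correlated at 0.099, 0.081 and 0.099 in their deviations from the group means, each highest with its own number. This is a hint of pairing from the data and not from the design.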
